A study of Mus musculus with 8 samples.

Results

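The 10 genes described here carry nitrogen into and through the urea cycle of the liver. They were taken by symbol from the liver RNA-seq table, where they are 10 of 24940 genes. They are *Nags*, *Cps1*, *Otc*, *Ass1*, *Asl* and *Arg1*, whose enzymes make up the cycle and its activator, the mitochondrial carriers *Slc25a15* and *Slc25a13*, and *Gls2* and *Glud1*, which release ammonia from glutamine and glutamate. The study asked what loss of the repressor BCL6 in hepatocytes adds to loss of the bile acid receptor FXR. RNA was sequenced from livers of C57BL/6 males, 4 of each genotype. FxrKO livers (1 to 4) were homozygous for the whole-body *Fxr* (*Nr1h4*) deletion and carried floxed *Bcl6* alleles without Cre. Bcl6LKOFxrKO livers (5 to 8) had the same *Fxr* deletion and floxed *Bcl6* alleles, together with Alb-Cre, a recombinase driven by the albumin promoter, which is active in hepatocytes. Age was not given in the sources used here, and the study's mice were fed ad libitum or fasted for 4 hours, without a statement for these livers. Livers with an intact *Fxr* gene were not analysed here, so loss of *Bcl6*, presence of Cre and any liver disease of these mice cannot be told apart.

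The urea cycle turns ammonia, which is toxic, into urea for excretion, and in mammals the complete cycle runs in hepatocytes. Ammonia enters in the mitochondrion, where CPS1, active only with the N-acetylglutamate made by NAGS, forms carbamoyl phosphate and OTC joins it to ornithine as citrulline. Citrulline leaves the mitochondrion, takes up aspartate nitrogen through ASS1, and is split by ASL and arginase into urea and ornithine. Along the liver lobule these enzymes are highest in periportal hepatocytes, whereas glutamine synthetase (*Glul*) captures remaining ammonia in a narrow pericentral layer.

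In Bcl6LKOFxrKO livers, 3 of the 10 genes fell at an adjusted p under 0.05 by edgeR's quasi-likelihood test and none rose. Against FxrKO livers, *Otc* fell by 45.3%, *Slc25a13* fell by 42.0% and *Nags* fell by 36.1%. Of the 12340 genes tested, 13.5% fell, 16.2% rose and 29.7% moved in either direction by the same test, so the count of members is close to the share over both directions. With an absolute log2 fold change above 0.5 as a further condition, the same 3 genes were called, beside 23.9% of all genes tested (14.1% higher and 9.84% lower). Genes as abundant as these moved more often than the average gene: among the 1758 tested genes with a mean level at or above that of the lowest member, 43.3% passed and 27.0% fell. With total counts alone as the scale, 7 of the 10 genes fell, and over all genes 1404 rose and 2949 fell instead of 1994 and 1665. DESeq2, run without the expression filter of the main fit, called 6 of the 10 lower, beside 10.2% of its 17789 tested genes. That share includes genes with few counts, and no DESeq2 share was computed for genes as abundant as these. The median log2 fold change was -0.30 over the 10 genes, 0.01 over all genes tested and -0.09 over those 1758 genes.

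The libraries held between 7586241 and 11839503 counts on genes, and 3 counts correspond to between 0.253 and 0.395 CPM (reads on a gene relative to the library total), a floor that covers counting error only. The CPM of single genes are scaled with TMM factors, which estimate a common scale from the bulk of genes. *Bcl6*, the gene removed by Cre, was at 56.3, 65.2, 21.2 and 55.6 CPM in FxrKO livers and 11.9, 4.61, 5.55 and 7.72 CPM in Bcl6LKOFxrKO livers. *Nr1h4* was still counted in both genotypes, at 60.0 ± 2.46 (SD, n = 4) and 43.5 ± 3.69 CPM (SD, n = 4). It was lower in every Bcl6LKOFxrKO liver (log2 fold change -0.46, adjusted p = 0.00497 from edgeR), and the cause of this difference was not tested. Counts per gene do not show whether the remaining reads come from a functional transcript. Albumin alone took 4.04% to 5.16% of counts in FxrKO livers and 11.9% to 13.2% in Bcl6LKOFxrKO livers, and scaling to total counts alone moved the median log2 fold change of all genes by -0.16 from the scaling used here. Liver 6 stood apart among the Bcl6LKOFxrKO livers. It was the highest of the 4 in 8 of 9 periportal markers and the lowest in 10 of 12 pericentral markers. Values without it are therefore given beside several of the results in which it stood out and where a call changed.

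*Nags*, which makes the obligatory activator of CPS1, lies on mm10 chr11:102145513-102149528 on the plus strand (NM_145829). It was at 104, 99.3, 80.8 and 68.4 CPM in FxrKO livers and at 59.5, 67.8, 44.3 and 53.7 CPM in Bcl6LKOFxrKO livers. All 4 Bcl6LKOFxrKO livers lay below all FxrKO livers, although liver 6 came within 1 CPM of liver 4. The means were 88.1 ± 16.5 and 56.3 ± 9.90 CPM (SD, n = 4 each), and the log2 fold change was -0.65 with a standard error of 0.16 (edgeR adjusted p = 0.00823). Without liver 6 the log2 fold change was -0.76 (adjusted p = 0.00484 from edgeR). Leaving out each liver in turn gave -0.76 to -0.54. As the samples are whole liver, fewer cells of a type and less RNA per cell cannot be told apart, here and in the results that follow. *Nags* shares 443 exon bases with the antisense gene *Gm11586*, and the counting options name no strand, so reads of both cannot be separated.

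*Cps1*, which catalyses the entry step and encodes one of the most abundant proteins of liver mitochondria, lies on chr1:67123027-67231267 on the plus strand (NM_001080809). Its levels were 1711, 2783, 2343 and 2519 CPM in FxrKO livers and 1580, 2035, 1838 and 978 CPM in Bcl6LKOFxrKO livers. Liver 1 was the low one among FxrKO livers and overlapped the other genotype, while liver 8 was lower than every other liver. The log2 fold change of -0.54 (standard error 0.21) was short of the threshold (edgeR adjusted p = 0.0750). This gene's call turned on single livers. Without liver 6 its log2 fold change was -0.68 (adjusted p = 0.0369 from edgeR), without liver 1 it was -0.67 (adjusted p = 0.0360), and without liver 8 it was -0.36 (adjusted p = 0.121).

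*Otc*, the next mitochondrial enzyme, lies on chrX:10252305-10321024 on the plus strand (NM_008769) and showed the largest difference of the 10 genes. It was at 368, 495, 530 and 437 CPM in FxrKO livers and at 251, 278, 282 and 190 CPM in Bcl6LKOFxrKO livers. The highest Bcl6LKOFxrKO liver stayed well below the lowest FxrKO liver. The means were 458 ± 70.8 and 250 ± 42.2 CPM (SD, n = 4 each), and the log2 fold change was -0.87 with a standard error of 0.15 (edgeR adjusted p = 9.70e-04). Without liver 6 the log2 fold change was -0.93 (adjusted p = 0.00154 from edgeR). Leaving out each liver in turn gave -0.96 to -0.76.

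**Figure D1:**
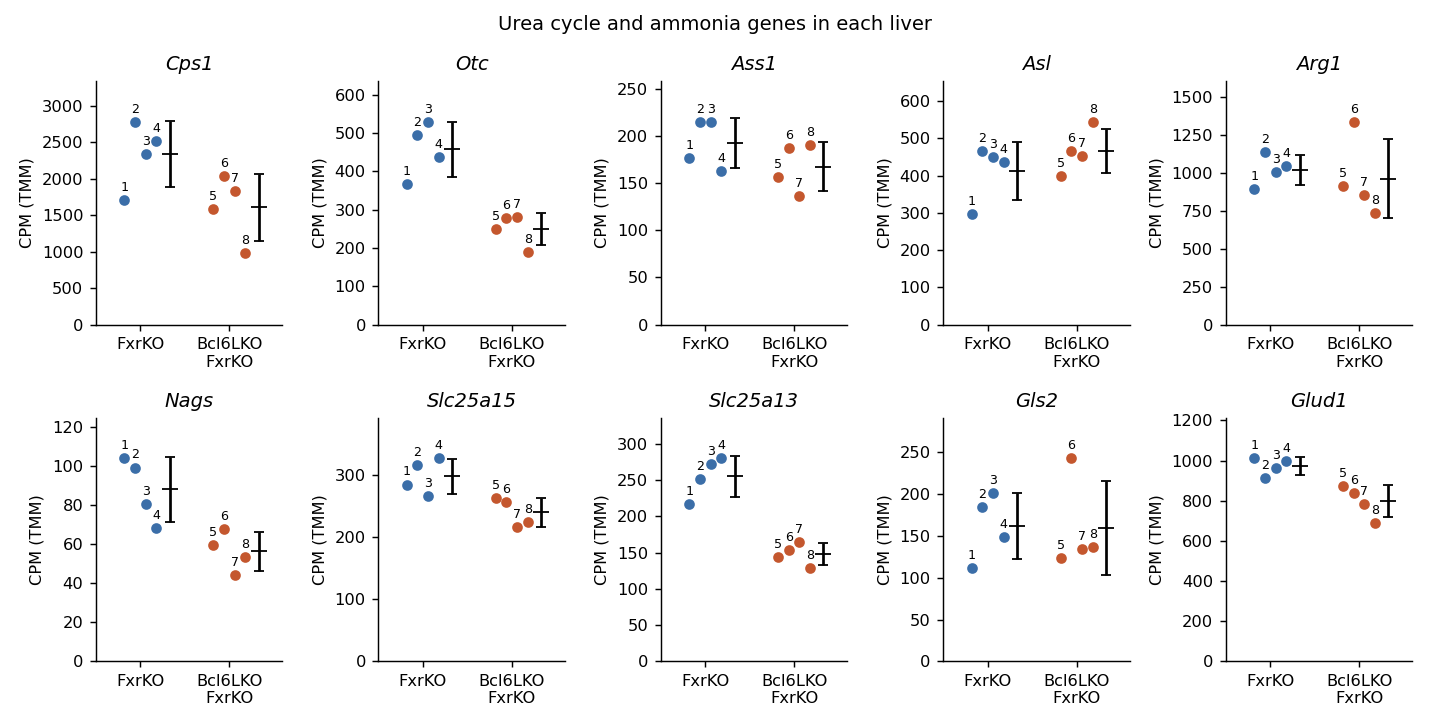
Level of each of the 10 genes in CPM (TMM-scaled, vertical axes) in every liver, with a point per liver and the mean and SD of each genotype (n = 4). *Otc*, *Nags*, *Slc25a13*, *Slc25a15* and *Glud1* show no overlap between FxrKO and Bcl6LKOFxrKO livers, while *Gls2* has a single Bcl6LKOFxrKO liver at 243 CPM above the other 3.

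The 2 inner-membrane carriers of the set both lay lower in every Bcl6LKOFxrKO liver, and 1 of them passed the test. *Slc25a13* encodes citrin, which exports aspartate to the cytosol for argininosuccinate synthesis, and lies on chr6:6041218-6217173 on the minus strand (NM_015829). It was at 217, 252, 272 and 280 CPM in FxrKO livers and at 144, 154, 165 and 129 CPM in Bcl6LKOFxrKO livers. The highest Bcl6LKOFxrKO liver, at 165 CPM, lay below the lowest FxrKO liver, at 217 CPM. The means were 255 ± 27.9 and 148 ± 15.6 CPM (SD, n = 4 each), and the log2 fold change was -0.79 with a standard error of 0.12 (edgeR adjusted p = 3.90e-04). Without liver 6 it was -0.82 (adjusted p = 9.17e-04 from edgeR), and leaving out each liver in turn gave -0.86 to -0.72. The related carrier *Slc25a12* (aralar), which prevails in other tissues, was counted at 16.1 ± 1.81 and 12.2 ± 2.64 CPM (SD, n = 4 each), and its log2 fold change of -0.40 did not pass (adjusted p = 0.0918 from edgeR).

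*Slc25a15*, the carrier that exchanges ornithine for citrulline, lies on chr8:22375550-22398277 on the minus strand (NM_001358971). Its levels were 284, 315, 265 and 326 CPM in FxrKO livers and 263, 256, 215 and 224 CPM in Bcl6LKOFxrKO livers. The groups did not overlap, but liver 3 and liver 5 were nearly level. The log2 fold change was -0.31 (95% interval -0.57 to -0.06, adjusted p = 0.0607 from edgeR), and without liver 6 it was -0.36 (adjusted p = 0.0524). Leaving out each liver in turn gave -0.37 to -0.26. Its relative *Slc25a2* reached at most 0.312 CPM in any liver and was not tested.

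The sequences just before the start sites are shown for the 3 genes that passed the test. They are the 250 bases upstream in the gene's own direction, from RefSeq on GRCm38.p6 (the assembly called mm10), at chrX:10252055-10252304 on the plus strand for *Otc*, chr11:102145263-102145512 on the plus strand for *Nags* and chr6:6217174-6217423 on the minus strand for *Slc25a13*. Capitals mark a motif match.
Otc: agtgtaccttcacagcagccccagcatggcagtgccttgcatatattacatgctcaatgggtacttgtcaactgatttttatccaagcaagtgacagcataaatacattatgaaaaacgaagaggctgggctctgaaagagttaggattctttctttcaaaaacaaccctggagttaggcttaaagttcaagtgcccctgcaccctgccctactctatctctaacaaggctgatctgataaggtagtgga
Nags: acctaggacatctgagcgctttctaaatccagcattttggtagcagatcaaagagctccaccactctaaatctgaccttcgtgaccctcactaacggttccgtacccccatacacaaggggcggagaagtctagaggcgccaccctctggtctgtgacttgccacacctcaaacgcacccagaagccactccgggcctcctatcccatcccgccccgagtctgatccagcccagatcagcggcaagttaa
Slc25a13: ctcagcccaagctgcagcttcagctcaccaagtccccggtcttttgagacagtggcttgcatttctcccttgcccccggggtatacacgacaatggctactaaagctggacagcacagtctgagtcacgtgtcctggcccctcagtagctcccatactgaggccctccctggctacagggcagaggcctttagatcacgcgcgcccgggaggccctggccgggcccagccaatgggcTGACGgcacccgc
Both strands were searched for TTCNNNGAA (a core shared by STAT proteins and BCL6), TTGCNNAA (C/EBP core), TGACG (a core of the cAMP response element) and, for the general factor TBP, TATAAA. The *Otc* and *Nags* windows held none of these letters, and the *Slc25a13* window held TGACG once, with its first base 13 bases before the start site (position -13). Among 32851 RefSeq promoter windows of this length, 7.02% held TTCNNNGAA, 9.56% TTGCNNAA, 17.8% TGACG and 12.4% TATAAA. The GC content was 43.6% for *Otc*, 55.6% for *Nags* and 62.8% for *Slc25a13*, so the 3 windows differ in base composition. Promoter sequences were at hand for 6 of the 10 genes, and the windows of *Ass1*, *Slc25a15* and *Glud1* held none of the 4 motifs.

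None of the 3 cytosolic enzymes passed the test. *Arg1*, arginase 1, which releases urea, lies on chr10:24915207-24927470 on the minus strand (NM_007482). It was at 892, 1136, 1002 and 1042 CPM in FxrKO livers and at 911, 1336, 856 and 738 CPM in Bcl6LKOFxrKO livers. The groups overlapped, with liver 6 the highest of all 8. The log2 fold change was -0.08 (95% interval -0.45 to 0.28, adjusted p = 0.746 from edgeR), and without liver 6 it was -0.29 (adjusted p = 0.113). Without liver 8 it was 0.02 (adjusted p = 0.929 from edgeR). *Arg2*, the mitochondrial arginase of other tissues, was near the floor at 0.522 ± 0.241 and 0.428 ± 0.0631 CPM (SD, n = 4 each).

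*Asl*, argininosuccinate lyase, lies on chr5:130011258-130024381 on the minus strand (NM_133768). It was at 298, 465, 451 and 437 CPM in FxrKO livers and at 400, 467, 452 and 545 CPM in Bcl6LKOFxrKO livers. Liver 1 was the low one and liver 8 the high one, and the groups overlapped. By this fit *Asl* was the only one of the 10 genes with a positive log2 fold change, of 0.18 (95% interval -0.15 to 0.51, adjusted p = 0.412 from edgeR). The interval leaves room for a difference in either direction.

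*Ass1*, argininosuccinate synthase, lies on chr2:31470270-31520670 on the plus strand (NM_007494). It was at 176, 215, 215 and 163 CPM in FxrKO livers and at 156, 187, 136 and 190 CPM in Bcl6LKOFxrKO livers. The groups overlapped between 163 and 190 CPM, and the log2 fold change was -0.20 (95% interval -0.50 to 0.10, adjusted p = 0.304 from edgeR). Its level is less certain than the others. A second row of the table, for the pseudogene *Gm5424*, is placed on the *Ass1* locus and held 97.8% to 98.6% of the *Ass1* counts in every liver, so the same reads stand in both rows. RefSeq places *Gm5424* on chr10:62071022-62072571, and 38.9% of the 100-base stretches of the *Ass1* transcript occur in it unchanged. Reads from those stretches have no single location and were dropped, which understates the *Ass1* level per length in all livers.

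The 2 genes that release ammonia did not pass the test. *Glud1*, glutamate dehydrogenase, lies on chr14:34310727-34345033 on the plus strand (NM_008133). It was at 1011, 912, 964 and 1000 CPM in FxrKO livers and at 875, 840, 783 and 691 CPM in Bcl6LKOFxrKO livers. No Bcl6LKOFxrKO liver reached the lowest FxrKO liver. The log2 fold change was -0.29 (95% interval -0.54 to -0.03, adjusted p = 0.0817 from edgeR), and without liver 6 it was -0.32 (adjusted p = 0.0701). Without liver 8 the log2 fold change of *Glud1* was -0.22 (adjusted p = 0.128 from edgeR). Together with *Otc*, *Nags*, *Slc25a13* and *Slc25a15* it made 5 of 10 genes whose groups did not overlap, all lower in Bcl6LKOFxrKO livers. Of all genes tested, 15.2% were lower without overlap and 31.3% did not overlap in either direction.

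*Gls2*, the glutaminase of periportal hepatocytes, lies on chr10:128194635-128210004 on the plus strand (NM_001285779). It was at 112, 185, 201 and 149 CPM in FxrKO livers and at 124, 243, 135 and 137 CPM in Bcl6LKOFxrKO livers. Liver 6 alone was far above the other Bcl6LKOFxrKO livers. With it the log2 fold change was -0.02 (95% interval -0.54 to 0.51, adjusted p = 0.968 from edgeR), and without it -0.30 (adjusted p = 0.224). *Gls2* overlaps *Spryd4* on the opposite strand by 95 bases.

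**Figure D2:**
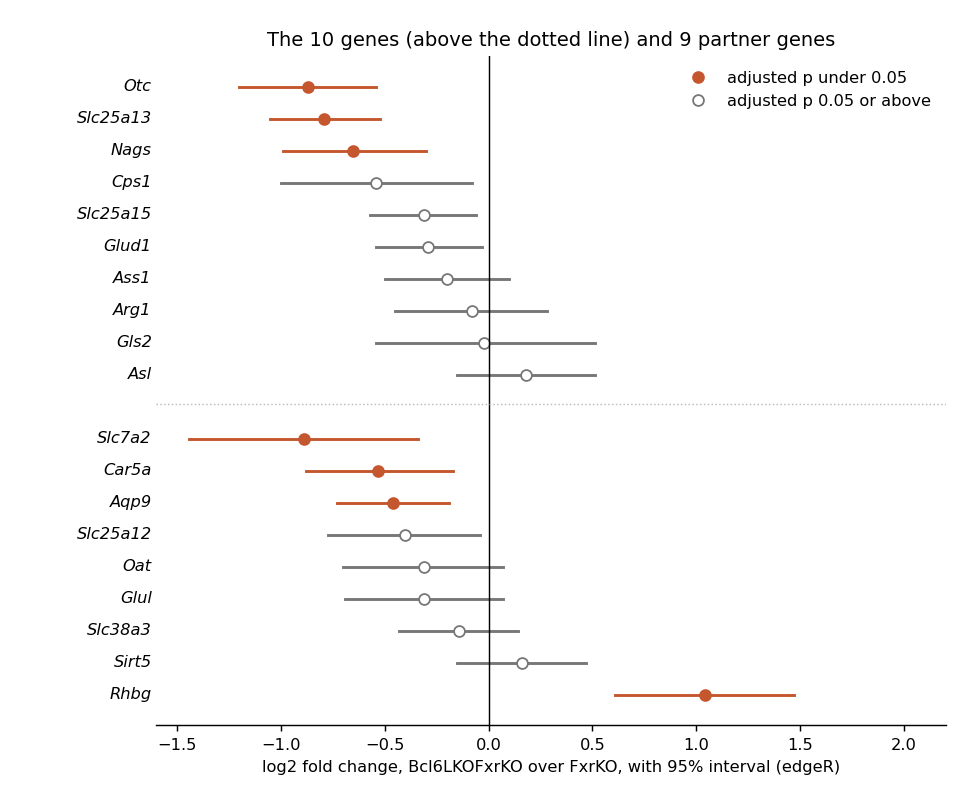
Log2 fold change (Bcl6LKOFxrKO over FxrKO, horizontal axis) with its 95% interval from edgeR for the 10 genes, above the dotted line, and for 9 partner genes below it. Filled points have an adjusted p under 0.05: *Otc*, *Slc25a13* and *Nags* among the 10 genes, at -0.87, -0.79 and -0.65.

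The order of the genes by level was much the same in both genotypes. Compared per kilobase of transcript (RPKM), *Arg1* was the highest in all 8 livers, at 694 ± 68.7 RPKM in FxrKO and 655 ± 178 RPKM in Bcl6LKOFxrKO livers (SD, n = 4 each). *Cps1* followed at 424 ± 82.6 and 291 ± 83.1 RPKM (SD, n = 4 each). *Nags* was the lowest by mean, at 41.8 ± 7.85 and 26.8 ± 4.70 RPKM (SD, n = 4 each). In FxrKO livers the mean levels ran from *Arg1* through *Cps1*, *Glud1*, *Asl*, *Otc*, *Ass1*, *Slc25a15*, *Slc25a13* and *Gls2* to *Nags*. The ranges of *Cps1* and *Glud1*, of *Asl* and *Otc*, and of each neighbour from *Slc25a15* down to *Nags* overlapped. The level of *Ass1* per length is understated, as described above, so its place relative to genes ranked higher, *Otc* among them, is not settled in either genotype. *Otc* itself was at 198 ± 30.7 and 109 ± 18.3 RPKM (SD, n = 4 each). In Bcl6LKOFxrKO livers the order ran from *Arg1* through *Cps1*, *Asl*, *Glud1*, *Otc*, *Ass1*, *Slc25a15*, *Gls2* and *Slc25a13* to *Nags*. Neighbours without overlap in these livers were *Arg1* and *Cps1*, *Glud1* and *Otc*, *Ass1* and *Slc25a15*, and *Slc25a13* and *Nags*.

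**Figure D3:**
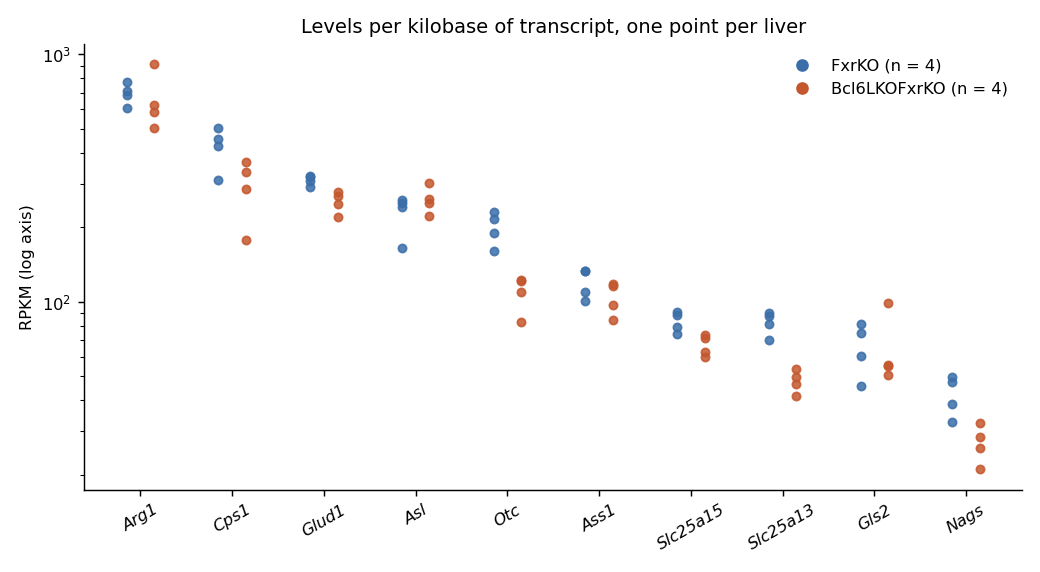
Levels of the 10 genes per kilobase of transcript (RPKM, log axis), with a point per liver and 4 livers per genotype, ordered by the FxrKO mean. *Arg1* is highest in all livers, and the *Ass1* level is understated because reads shared with a pseudogene were dropped.

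Within-liver ratios do not depend on how the libraries are scaled, so 13 ratios of gene pairs were compared between the genotypes, as differences in log2 ratio. The ratio of *Asl* to *Cps1* was higher in every Bcl6LKOFxrKO liver. Its log2 values were -2.52, -2.58, -2.38 and -2.53 in FxrKO livers and -1.98, -2.12, -2.02 and -0.84 in Bcl6LKOFxrKO livers. The mean difference of 0.76 rested in part on liver 8, without which it was 0.46. It reached 0.029 in a two-sided exact permutation test over the 70 orderings of 8 livers, the smallest p it can give, and 0.19 after Benjamini-Hochberg adjustment over the 13 ratios. The ratio of *Otc* to *Cps1* differed by -0.30 (exact permutation p = 0.11, adjusted 0.25), and that of *Nags* to *Cps1* by -0.07 (exact permutation p = 0.77, adjusted 0.84). No ratio passed after adjustment. A single ratio could not have passed, since the smallest p of this test is too large once adjusted over 13 ratios, so no conclusion is drawn from this.

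The partners of the cycle are enzymes and transporters that supply its substrates or share its intermediates. Of 12 tested partner genes, 8 fell, 4 did not pass and none rose, with a median log2 fold change of -0.48 beside 0.01 over all genes tested, of which 13.5% fell (27.0% among genes at or above the level of the lowest member). Without liver 6, 7 fell, since *Slc7a2* (adjusted p = 0.0518 from edgeR) and *Car5a* (0.0575) no longer passed and *Slc25a12* did (log2 fold change -0.52, adjusted p = 0.0448), and DESeq2 also called 1 higher. *Got1*, the cytosolic aspartate aminotransferase, was at 218, 360, 359 and 456 CPM in FxrKO livers and at 179, 179, 211 and 148 CPM in Bcl6LKOFxrKO livers (log2 fold change -0.96, adjusted p = 0.00270 from edgeR). *Slc7a2*, a transporter of arginine and ornithine, fell by 0.89 on the log2 scale (adjusted p = 0.0203 from edgeR), and *Sirt3*, a mitochondrial deacetylase, by 0.68 (adjusted p = 0.00201). *Car5a*, which supplies bicarbonate to CPS1, fell by 0.53 (adjusted p = 0.0277 from edgeR). *Aqp9*, a channel that passes urea and glycerol, was at 690, 689, 771 and 811 CPM in FxrKO livers and at 547, 438, 568 and 599 CPM in Bcl6LKOFxrKO livers (log2 fold change -0.46, adjusted p = 0.0158 from edgeR). *Oat*, which links ornithine to glutamate, and *Sirt5*, a desuccinylase acting on CPS1, did not pass, with log2 fold changes of -0.31 and 0.16 (adjusted p = 0.208 and 0.438 from edgeR). *Oat* was at its lowest in liver 6, without which its log2 fold change was -0.16 (adjusted p = 0.376 from edgeR).

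Genes that handle glutamine and glutamate moved both ways: of 16 tested, 5 rose, 5 fell and 6 did not pass, with a median log2 fold change of -0.23, beside 16.2% of all genes that rose and 13.5% that fell. Without liver 6, 4 rose and 4 fell. *Slc1a2*, a glutamate importer of pericentral hepatocytes, rose from 221 ± 41.4 to 708 ± 186 CPM (SD, n = 4 each, log2 fold change 1.68, adjusted p = 4.37e-05 from edgeR). *Aldh18a1*, which turns glutamate toward proline and ornithine, rose by 2.04 on the log2 scale (adjusted p = 6.09e-05 from edgeR). *Slc38a4*, an amino acid importer, fell from 1120 ± 220 to 527 ± 112 CPM (SD, n = 4 each, adjusted p = 5.87e-04 from edgeR), *Prodh*, proline dehydrogenase, fell by 1.07 on the log2 scale (adjusted p = 2.14e-05) and *Gpt2*, mitochondrial alanine aminotransferase, by 0.88 (adjusted p = 4.77e-04). *Rhbg*, an ammonia transporter of pericentral hepatocytes, rose by 1.04 (adjusted p = 0.00185 from edgeR). *Glul*, the pericentral glutamine synthetase, did not pass, at 883, 880, 756 and 910 CPM in FxrKO livers and 629, 460, 834 and 849 CPM in Bcl6LKOFxrKO livers (log2 fold change -0.31, 95% interval -0.69 to 0.07, adjusted p = 0.209 from edgeR). Its lowest value was that of liver 6, without which the log2 fold change was -0.16 (adjusted p = 0.393 from edgeR). *Slc38a3*, which carries glutamine across the hepatocyte membrane, differed by -0.14 (adjusted p = 0.446 from edgeR).

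Markers of the lobule zones did not move as 1 block. Among 9 periportal markers *Aldh1b1* rose and *Cyp2f2*, *Pigr* and *Hsd17b13* fell, with summed levels of 2229 to 3163 CPM in FxrKO and 1495 to 2419 CPM in Bcl6LKOFxrKO livers. Among 12 pericentral markers *Slc1a2*, *Rhbg*, *Lhpp* and *Gulo* rose and *Cyp2e1* fell, with summed levels of 14566 to 19388 CPM and 6462 to 10072 CPM. The lower sum was carried by *Cyp2e1*: the other 11 markers summed to 5429 to 6260 CPM in FxrKO and 4348 to 6557 CPM in Bcl6LKOFxrKO livers, which overlap. *Cyp2e1* fell by 1.92 on the log2 scale (adjusted p = 4.45e-06 from edgeR), and *Cyp2f2* fell by 1.52 (adjusted p = 6.62e-04). Without liver 6 the log2 fold change of *Cyp2f2* was -1.79 (adjusted p = 4.59e-05 from edgeR). That of *Pigr* was -0.69 with liver 6 and -0.93 without it (adjusted p = 0.0205 and 0.00102 from edgeR). The part of zonation in the lower *Otc*, *Nags* and *Slc25a13* levels was not tested.

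Liver 6 combined higher periportal and lower pericentral levels. Its summed periportal markers were at 2419 CPM, against 1544, 1495 and 1536 CPM in livers 5, 7 and 8, and its summed pericentral markers at 6462 CPM against 9236, 10072 and 9349 CPM. Relative to the Bcl6LKOFxrKO mean it was higher by 0.60 (log2) in *Gls2*, 0.48 in *Arg1* and 0.34 in *Cps1*, and differed by -0.59 in *Glul* and -0.64 in *Oat*. It was the highest of its genotype in 4 of the 10 genes (*Cps1*, *Arg1*, *Nags* and *Gls2*) and the lowest in none. Liver 8 was the lowest of its genotype in 5 genes, and liver 1 the lowest FxrKO liver in 6.

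**Figure D4:**
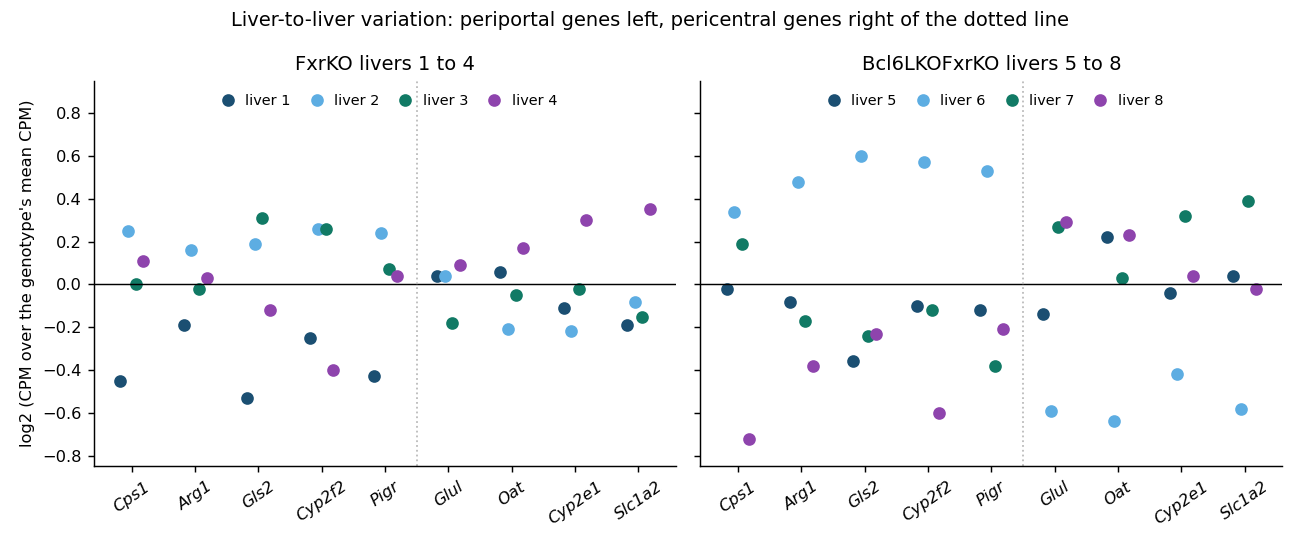
Deviation of each liver from its genotype's mean (log2, vertical axis) for periportal genes, left of the dotted line, and pericentral genes, right of it, in 4 FxrKO and 4 Bcl6LKOFxrKO livers. Liver 6 lies above the other Bcl6LKOFxrKO livers in all 5 periportal genes shown and below them in all 4 pericentral genes shown. The genes shown are a selection. Over the full lists liver 6 was highest in 8 of 9 periportal markers, lowest in 10 of 12 pericentral markers and highest in 4 of the 10 genes.

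The 7 hepatocyte markers analysed were counted in all livers, and of these *Alb* and *Apoc3* rose and *Serpina1e* and *Ttr* fell in Bcl6LKOFxrKO livers. *Serpina1e* was at 598 CPM in liver 6 against 25.8 to 34.7 CPM in livers 5, 7 and 8. Its log2 fold change was -5.22 with liver 6 and -7.79 without it (adjusted p = 0.0338 and 1.25e-07 from edgeR). Markers of other cells were more abundant in Bcl6LKOFxrKO livers for several types. Summed cholangiocyte markers were at 41.5 to 65.9 CPM in FxrKO and 74.3 to 134 CPM in Bcl6LKOFxrKO livers, with *Krt19* and *Spp1* higher of 4 tested. Most of that sum was *Spp1*, at 36.6 to 53.7 and 66.2 to 123 CPM. *Krt19* reached at most 3.09 CPM, and its groups overlapped. Summed stellate cell markers were at 67.9 to 89.4 and 134 to 162 CPM, with *Pdgfrb*, *Des* and *Reln* higher of 6 tested. The ranges overlapped for endothelial markers, at 115 to 158 and 150 to 210 CPM with *Stab2* higher of 5, and for macrophage markers, at 220 to 285 and 266 to 455 CPM with *Cd68* higher of 6. The 5 lymphocyte markers were at 1.12 to 2.58 and 3.53 to 4.90 CPM in sum and were not tested. Without liver 6, *Krt19* (adjusted p = 0.0524 from edgeR) and *Des* (0.0682) no longer passed. No listed marker was at 0 in all livers, and the part of these cells in the results was not tested.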

How the data were processed

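Counts of 8 livers were used, 4 per genotype, grouped by the sample labels, each with its own number in the titles and taken as a separate animal. The authors aligned 100 bp single-end reads from a stranded polyA kit to mm10 with STAR 2.5.2, discarded reads with over 4 mismatches or more than 1 location, and deposited unnormalized exon counts per gene (HOMER 4.10, condensed to 1 transcript a gene, no strand option stated). Totals were 7586241 to 11839503 counts per liver.

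The counts were fitted in R 4.3.3 with edgeR 4.0.16 (filterByExpr, TMM, robust quasi-likelihood, Benjamini-Hochberg over the 12340 tested genes). The study's methods name DESeq2, used here (1.42.0) as an alternative with limma 3.58.1 voom, RLE size factors, total counts alone, other filters and each liver left out. The scripts were tested on simulated counts. Ratios used 0.5 added counts. The genes and lists were chosen with earlier results of these data known. Named besides the 10 genes were 12 partners, the targeted genes, *Alb*, and the 3 largest called rises and falls of each list. *Gm5424*, *Gm11586*, *Spryd4* and *Gulo* were named after their values were seen. 1 gene that this rule names, and its ratio, are not reported here.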

Additional observations from a re-analysis of the deposited data

Results flagged for a closer look

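In 76 groups of 4 livers, the highest or lowest liver was compared with the rest, as its gap to the nearest liver over the range of the group, against the 95% critical value of Dixon for 4 values. Chance flags about 1 in 20, here 3.8 groups, and 4 were flagged. *Asl* in FxrKO liver 1 was low, at 298 CPM against 437 to 465 in livers 2 to 4 (0.831). *Gls2* in Bcl6LKOFxrKO liver 6 was high, at 243 CPM against 124 to 137 in livers 5, 7 and 8 (0.896). *Slc7a2* in Bcl6LKOFxrKO liver 7 was high, at 260 CPM against 141 to 157 (0.862). The log2 ratio of *Asl* to *Cps1* in Bcl6LKOFxrKO liver 8 was -0.84 against -2.12 to -1.98 in livers 5 to 7 (0.889).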

How the results depend on the processing

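*Otc*, *Slc25a13* and *Nags* passed with the same direction in all 15 alternatives, with adjusted p of 1.49e-06 to 0.00460, 1.86e-08 to 0.00224 and 0.00132 to 0.0294. With total counts alone, which moved the median of all genes by -0.16, 7 of the 10 genes fell instead of 3, with *Cps1* at -0.70 (adjusted p = 0.0231 from edgeR), *Ass1* at -0.36 (0.0473), *Slc25a15* at -0.47 (0.00767) and *Glud1* at -0.44 (0.0125). All genes tested then gave 2949 falls instead of 1665, and rises made up 32.3% of calls instead of 54.5%. DESeq2 called 6 of the 10, with *Cps1* at -0.56 (0.0457), *Slc25a15* at -0.33 (0.0296) and *Glud1* at -0.30 (0.0272). With the 50 most counted genes left out of normalization *Slc25a15* passed at -0.33 (0.0475). *Gls2* was 0.01 with at least 10 counts in every liver. Apart from the scaling by total counts, the cause of these changes was not tested.

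With each liver left out in turn, log2 fold changes ran from -0.68 to -0.36 for *Cps1*, -0.29 to 0.02 for *Arg1* and -0.30 to 0.10 for *Gls2*, the members called lower from 3 to 4, and the uncalled ratios from -0.28 to 0.16 (*Nags* to *Cps1*), -0.09 to 0.49 (*Gls2* to *Glul*) and -0.21 to 0.42 (*Arg1* to *Arg2*). *Arg1* turned positive without liver 8. Leaving out liver 6 for partner genes, lists and markers, and *Cyp2e1* from the pericentral sum, was chosen after seeing the data. The livers are numbered here in order of listing. Numbers in the sample titles run on between the genotypes for livers 1 and 6, 2 and 7, and 3 and 8, but no label calls these pairs, and no paired fit was run. With 4 livers per genotype and standard errors near 0.15, small differences such as those of *Ass1* and *Asl* were not resolved, and precision beyond counting error rests on these 8 livers.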

Other observations

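Enzymes that release nitrogen from amino acids, which feed the urea cycle, were also examined. Of 16 tested, 6 fell, 10 did not pass and none rose, with a median log2 fold change of -0.31 beside 0.01 over all genes tested, and 9 fell without liver 6. Of all genes tested 13.5% fell, and 27.0% of those at or above the level of the lowest of the 10 urea cycle and ammonia genes. *Tdo2*, which opens the tryptophan ring, was at 865, 975, 884 and 1131 CPM in FxrKO livers and at 199, 300, 270 and 241 CPM in Bcl6LKOFxrKO livers (log2 fold change -1.93, adjusted p = 1.08e-06 from edgeR). *Aass*, of lysine breakdown, fell by 1.45 on the log2 scale (adjusted p = 4.45e-05 from edgeR) and *Ftcd*, of histidine breakdown, fell by 1.31 (adjusted p = 4.74e-04).

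Of 12 regulators of urea cycle genes, 4 fell, 8 did not pass and none rose, with a median log2 fold change of -0.54 beside 0.01 over all genes tested. The same shares of 13.5% and 27.0% stand as its background, and the count is near the second. Without liver 6, 5 regulators fell. *Ppara*, a nuclear receptor of the fasted liver, fell by 0.99 on the log2 scale (adjusted p = 0.00104 from edgeR), *Klf15*, a factor that controls amino acid breakdown, fell by 0.90 (adjusted p = 3.58e-04) and *Cebpa*, a factor of hepatocyte differentiation, fell by 0.70 (adjusted p = 0.00316). With total counts alone 9 of the 12 fell, beside 23.9% of all genes tested on that scale.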
